A study of Mus musculus with 14 samples.

Results

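LSD1 binding was compared between wild-type mouse livers (WT) and livers that carried a YAP transgene switched on by doxycycline (YAP). The members were the regions of the deposited LSD1 lists of both genotypes on chromosomes 1 to 19, X and Y, after overlapping or touching entries within a list had been merged. This left 1500 WT and 2949 YAP regions, together 4449 of the 122523 merged regions in the 6 lists of the series. A region was called common if it overlapped a region of the other genotype by at least 1 bp, and genotype-specific (YAP-only or WT-only) otherwise. The comparison gave 2442 YAP-only, 993 WT-only and 507 common regions.

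The material was bulk liver of C57BL/6 mice, either wild type or carrying the inducible YAP transgene. Chromatin was cut with micrococcal nuclease to fragments of 150 to 900 bp, and LSD1 was immunoprecipitated from 2 replicates per genotype. The series also holds H3K4me1 and H3K4me2 immunoprecipitations and 2 input libraries. Doxycycline at 50 mg/L for 10 days stands on the label of every sample, and the labels do not say whether WT mice drank it. The sources used here do not give the sex or age of the mice, nor the promoter that drives the transgene. In bulk tissue, binding in fewer cells and weaker binding per cell cannot be told apart.

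Each LSD1 list stands for both replicates of its genotype, so no spread between replicates can be computed and no p-value is given. The read depth of the libraries is unknown. Intervals on shares are 95% Wilson intervals, and those on differences of shares are 95% Newcombe intervals. Both count regions as independent and cover counting error only. An interval that excludes 0 is therefore no test of genotype. Signal means a value per region that the authors deposited with no stated definition. It ran from 10.6 to 74.2 over the WT entries and from 11 to 97.5 over the YAP entries. It was used here to rank or describe regions within 1 list. Across lists it entered only the correlation over common pairs and the order of genes holding both kinds of specific region, both given below.

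The labelled tissue was checked against listed H3K4me2. All 10 hepatocyte marker genes had an H3K4me2 region inside the gene or within 5 kb in WT, and 9 of 10 did in YAP. Of 8 macrophage and Kupffer cell markers, 2 had one in WT and 6 in YAP. For 8 cholangiocyte markers the counts were 5 and 5, for 8 endothelial markers 5 and 6, for 8 stellate cell and fibroblast markers 4 and 4, and for 8 lymphocyte markers 3 and 4. LSD1 itself was listed at no marker of stellate cells, macrophages or lymphocytes. Whether a different mix of cells has a part in the LSD1 lists was not tested.

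LSD1, encoded by Kdm1a, is a demethylase that removes methyl groups from mono- and dimethylated lysine 4 of histone H3. It works mostly inside repressive complexes built on CoREST and histone deacetylases, yet it is also commonly found at active promoters. YAP is the co-activator held back by the Hippo pathway. It has no DNA-binding domain of its own and reaches DNA mainly through TEAD factors, and its activation makes the liver overgrow.

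The promoters below were overlapped by the LSD1 regions with the highest signal at promoters of each class. Fos is added as an immediate-early gene with a YAP-only region. At Cep57 and Ip6k2 the region lies upstream and does not reach the start itself. The sequences show what LSD1-bound promoters look like in letters. Each runs 5′ to 3′ on the strand of its gene, from 250 bases before to 50 bases after the start, and comes from RefSeq on GRCm38.p6, whose coordinates are those of mm10. Capitals mark matches, on either strand, to the ETS core CCGGAAG, the SP and KLF core GGGCGG, the CRE motif TGACGTCA, the shorter motif TGACG it contains, and the NFY motif CCAAT.
Cep57: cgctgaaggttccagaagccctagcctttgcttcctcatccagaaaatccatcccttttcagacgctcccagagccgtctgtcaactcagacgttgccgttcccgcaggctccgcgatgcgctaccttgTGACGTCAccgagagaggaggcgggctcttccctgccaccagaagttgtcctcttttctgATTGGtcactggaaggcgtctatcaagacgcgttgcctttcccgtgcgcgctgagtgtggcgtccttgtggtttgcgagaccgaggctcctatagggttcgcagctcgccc
Ampd2: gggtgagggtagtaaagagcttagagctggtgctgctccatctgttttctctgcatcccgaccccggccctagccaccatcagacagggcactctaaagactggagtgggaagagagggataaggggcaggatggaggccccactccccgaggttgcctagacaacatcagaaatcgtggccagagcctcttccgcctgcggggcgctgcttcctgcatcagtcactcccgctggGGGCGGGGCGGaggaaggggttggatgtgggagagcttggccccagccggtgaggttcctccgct
Hjurp: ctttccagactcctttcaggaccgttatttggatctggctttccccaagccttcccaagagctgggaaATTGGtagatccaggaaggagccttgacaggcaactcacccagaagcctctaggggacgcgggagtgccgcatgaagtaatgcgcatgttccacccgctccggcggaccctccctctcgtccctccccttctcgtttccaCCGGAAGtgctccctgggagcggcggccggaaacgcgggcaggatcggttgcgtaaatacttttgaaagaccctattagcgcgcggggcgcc
Tpra1: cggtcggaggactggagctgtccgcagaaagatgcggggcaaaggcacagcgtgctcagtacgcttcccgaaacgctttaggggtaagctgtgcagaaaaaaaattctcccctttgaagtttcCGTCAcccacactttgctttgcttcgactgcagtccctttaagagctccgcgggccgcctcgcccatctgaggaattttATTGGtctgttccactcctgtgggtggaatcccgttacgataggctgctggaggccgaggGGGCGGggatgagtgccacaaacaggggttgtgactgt
Ip6k2: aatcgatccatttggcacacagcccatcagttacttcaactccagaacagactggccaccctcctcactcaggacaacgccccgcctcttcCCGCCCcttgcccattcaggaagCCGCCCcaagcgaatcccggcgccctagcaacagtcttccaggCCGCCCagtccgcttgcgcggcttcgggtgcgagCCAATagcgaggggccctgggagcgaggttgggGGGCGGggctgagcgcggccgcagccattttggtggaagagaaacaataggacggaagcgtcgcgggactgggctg
Fos: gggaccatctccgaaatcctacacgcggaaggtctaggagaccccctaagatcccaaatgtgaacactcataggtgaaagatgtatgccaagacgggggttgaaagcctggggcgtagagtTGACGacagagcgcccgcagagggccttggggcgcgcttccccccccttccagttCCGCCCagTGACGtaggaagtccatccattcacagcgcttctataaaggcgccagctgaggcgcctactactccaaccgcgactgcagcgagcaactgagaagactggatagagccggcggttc

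Cep57, a centrosomal protein gene whose annotated start overlaps that of Fam76b, had a YAP-only region of signal 90.9 at chr9:13827067-13827466, which covers 237 bases of the printed promoter. That promoter holds 1 whole CRE motif, which contains both TGACG matches counted there, and 1 NFY motif. Ampd2, an AMP deaminase gene, had a YAP-only region of signal 80.5 over 298 of its 300 printed bases, which hold 2 overlapping GGGCGG motifs. Hjurp, whose product loads the centromeric histone CENP-A, had a WT-only region of signal 55.9 over the whole printed promoter, with 1 ETS and 1 NFY motif. Tpra1 had a WT-only region of signal 55.1. The region at Ip6k2, an inositol hexakisphosphate kinase gene, was common and had the highest signal of the YAP list, 97.5. Its promoter holds 4 GGGCGG motifs and 1 NFY motif. The 6 promoters have between 12 and 24 CpG pairs, against a median of 13 over all 21238 RefSeq promoters.

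The 507 common regions were 33.8% (31.5 to 36.2) of the WT list and 17.2% (15.9 to 18.6) of the YAP list. Overlap depended on rank. Each list was split by signal into 10 classes of equal size. In the WT list, 67.3% (59.5 to 74.3) of the class with the highest signal were found in the YAP list, against 21.3% (15.5 to 28.6) of the class with the lowest. In the YAP list the same shares were 46.1% (40.5 to 51.8) and 9.18% (6.39 to 13). Of the 100 WT regions with the highest signal, 71 were in the full YAP list, and 58 of the highest 100 YAP regions were in the full WT list. Where both lists had a region, the regions lay close on each other, with a median overlap of 369 bp and a median shift of their centres of 54 bp. Over these 507 pairs the WT and YAP signals had a Pearson correlation of 0.34 and a Spearman correlation of 0.29, given as a description of pairs that share an antibody and a genome position.

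The YAP list is nearly double the WT list, so the classes were also counted with the YAP list reduced to its 1500 regions with the highest signal, down to a signal of 35.4. This gave 1137 YAP-only, 1137 WT-only and 363 common regions (24.2% of either list, 22.1 to 26.4). With lists of one length and pairs matched singly, both counts must be equal, so they say nothing on gain or loss. No overlap between replicates is at hand to set beside the common share. With the top 1000 of each list there were 753 YAP-only, 753 WT-only and 247 common regions, and with the top 100 there were 81, 81 and 19. The common share was 24.7% (22.1 to 27.5) at 1000 regions and 19% (12.5 to 27.8) at 100. Of the 507 common regions, 144 were left out with the weaker part of the YAP list. With only regions at the highest score of 1000 in both lists, 656 were YAP-only, 160 WT-only and 99 common. These lists hold 259 WT and 755 YAP regions, so length again differs between the genotypes, and the score has no stated definition. Within each list the genotype-specific regions had a lower median signal than the common ones, 34.8 against 40.2 in the YAP list and 33.1 against 36.9 in the WT list.

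**Figure D1:**
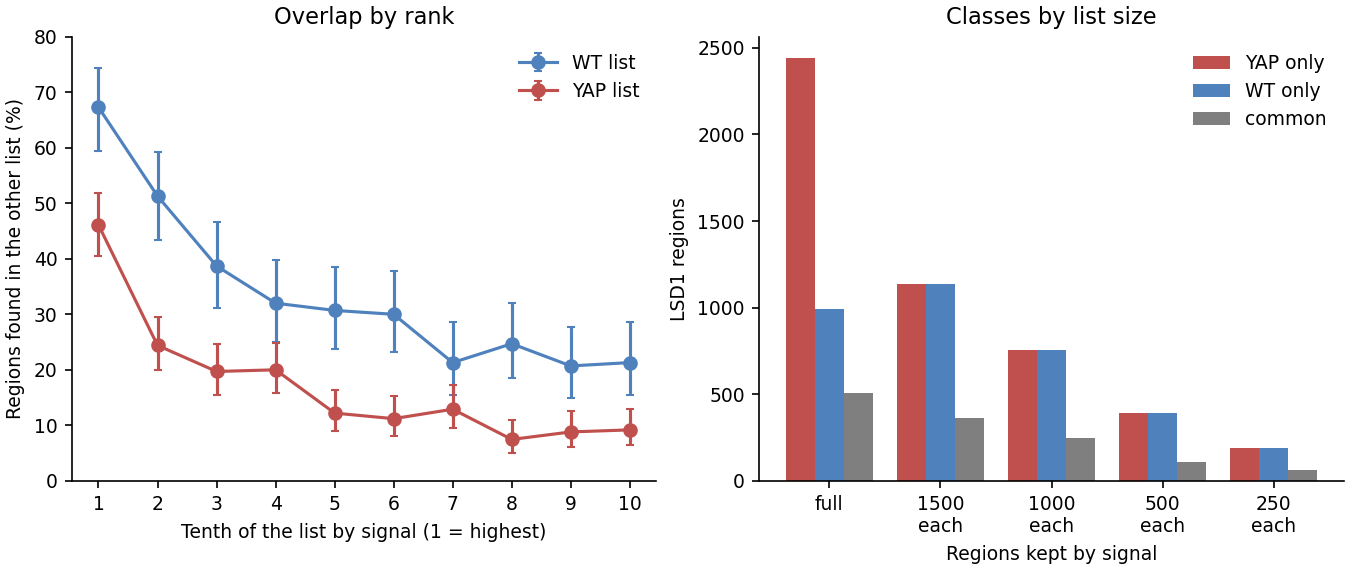
Left, the share of LSD1 regions found in the other list (y axis, percent, with 95% Wilson intervals) in 10 classes of equal size by signal (x axis, 1 = highest); right, the number of YAP-only, WT-only and common regions (y axis) for the full lists and for lists reduced to the same number by signal (x axis). Overlap falls from 67.3% to 21.3% along the WT list and from 46.1% to 9.18% along the YAP list, and at equal numbers both genotype-specific classes have the same height by construction.

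In the full lists the genotype-specific classes had similar shares around genes. Gene ends, meaning within 1 kb of where the annotation of a protein-coding gene begins or stops, held 34.5% of YAP-only (32.7 to 36.4) and 35.1% of WT-only regions (32.2 to 38.2), a difference of -0.625 percentage points (-4.17 to 2.85). With lists of equal size the difference was -1.06 points (-4.99 to 2.88). In the top 1000 of each list the shares were 33.5% and 38.4%, a difference of -4.91 points (-9.73 to -0.0678). A further 34.2% of YAP-only and 33.0% of WT-only regions lay inside a gene away from its ends, and 31.2% and 31.8% lay between genes. Common regions were nearer to genes, with 45.0% (40.7 to 49.3) at a gene end and 26.2% (22.6 to 30.2) between genes.

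RefSeq gave starts for 17492 of 21887 protein-coding genes. Over the chromosomes with such starts, 17.6% of 2363 YAP-only, 17.5% of 960 WT-only and 27.6% of 489 common regions lay directly on a start. The median distance to the nearest start was 11398 bp, 10771 bp and 4918 bp in that order. Among regions centred within 1 kb of a start, the centre lay a median of 49 bp upstream for YAP-only (offset -49), 10 bp upstream for WT-only (-10) and 73 bp upstream for common regions (-73). The YAP-only median was -92 at equal size and -81 with the top 1000 of each, and the WT-only median -14 and -17. The 10th and 90th percentiles of the YAP-only offsets were -412 and 329 bp. Between 52.8% and 63.1% of these centres lay within 200 bp of the start in each class.

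**Figure D2:**
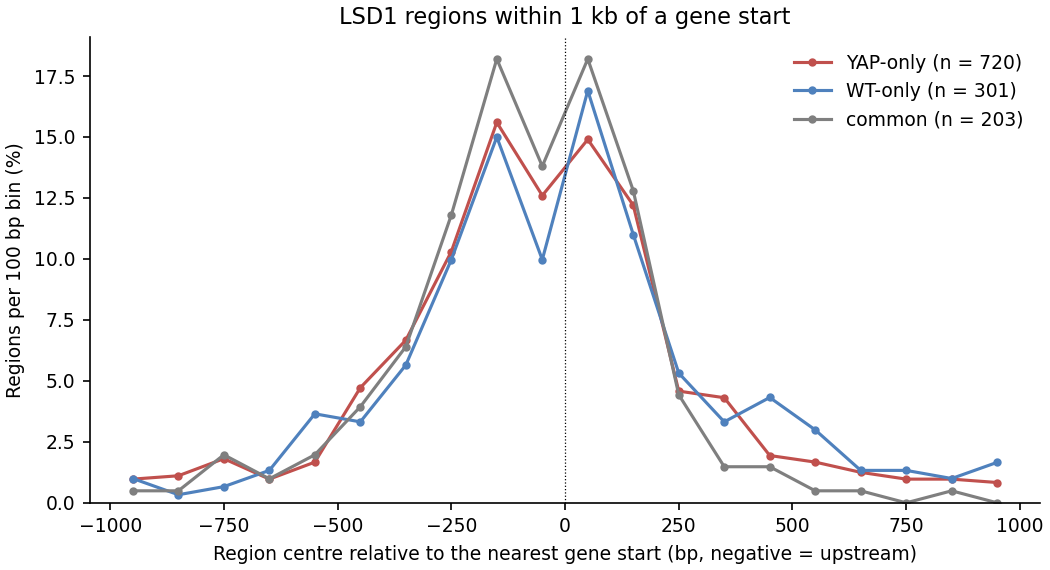
Share of LSD1 regions per 100 bp bin (y axis, percent of the regions of a class centred within 1 kb of a gene start) against the distance of the region's centre from the nearest start (x axis, bp, negative upstream), for 720 YAP-only, 301 WT-only and 203 common regions. All 3 curves rise on both sides of the start and dip in the bin just upstream of it. At equal size, not drawn, that bin held 14.1% of YAP-only regions and the next bin downstream 13.8%, so no dip was left. WT-only regions kept it there, at 11.5% between 14.8% and 16.8%. With the top 1000 of each list neither of these classes had the dip.

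Far from genes the classes differed a little in the full lists. Over 100 kb from any protein-coding gene lay 6.35% of YAP-only and 4.33% of WT-only regions, a difference of 2.02 points (0.309 to 3.53). With lists of equal size the difference was 1.23 points (-0.53 to 3.01), so its interval included 0. The 5 most distant YAP-only regions lay 1930 kb from Cntnap5b, 1700 kb from Gpc5, 1450 kb from Celf4, 1270 kb from Flrt2 and 1090 kb from Cited2. Their signals were between 28.8 and 42.2, and the regions near Flrt2 and Cited2 were kept in the reduced YAP list. The 3 most distant WT-only regions lay 998 kb from Ctnna2, 940 kb from Pcdh7 and 549 kb from Arl4a, with signals of 29.3, 30.7 and 34.7.

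Away from gene ends, the YAP-only region with the highest signal (93.1) lay inside Usp43, a deubiquitinase gene, at chr11:67897091-67897490, where H3K4me2 was listed in YAP only. Mfsd2a, the gene of a transporter of docosahexaenoic acid in lysolipid form, followed with 86.1 and Foxj2, a forkhead factor gene, with 85.6. Nfib, a nuclear factor I gene, held a region of 77.6 and Mast4, a kinase gene, 1 of 72.9. At Mfsd2a, Foxj2, Nfib and Mast4 the LSD1 region had H3K4me2 in both genotypes. Other strong YAP-only regions lay between genes, 27.6 kb from Bbs10 (85.0), 56.1 kb from Tfcp2l1 (81) and 1.37 kb from Lrrc74a (71.3), with no H3K4me2 in either list. On the WT-only side the highest signals were 62.5 near Adam24, 60.1 near Rnf125, 58.9 inside Ldlrad4 and 57.4 at 17.8 kb from Osbp. The last region, chr19:12011870-12012265, lies on the tRNA gene n-TVtac1. Lower WT-only signals stood 47.9 kb from Rbpms (54.1), inside Sin3a, the gene of a corepressor scaffold (53.4), 41.9 kb from Rpl11 (53.3) and inside Arhgef10 (53.3).

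At gene ends, 959 of 21887 protein-coding genes (4.38%) had LSD1 in YAP only, and 378 (1.73%) had it in WT only. In 293 it was listed for both genotypes. With the YAP list reduced to the WT length, the counts were 457 (2.09%), 465 (2.12%) and 206, a difference of -8 in place of 581. Specific regions are then equal in number by construction, so this near-balance of genes says nothing on gain or loss. Counting the whole gene with 5 kb on either side gave 1769 YAP-only (8.08%) and 625 WT-only genes (2.86%), and 875 (4.0%) and 849 (3.88%) at equal size. Over the top 1000 of each list, 298 genes (1.36%) were YAP only and 337 (1.54%) WT only at an end. The whole-gene counts were then 628 and 627 of 21887. These shares over all genes are the background for the gene groups below. The YAP-only genes rested on 820 regions, 147 of which lay at the ends of more than 1 gene, and the WT-only genes on 328 regions, 54 of them shared. Kdm1a, Yap1 and Odc1, the gene of ornithine decarboxylase, had no LSD1 region in either list.

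The excess in YAP ran through nearly all gene families in the full lists and was gone at equal size. There, equal numbers of specific regions are built in, so a near-even split of families says nothing on gain or loss. Of 30 families defined by gene symbol, 27 had more YAP-only than WT-only members at gene ends in the full lists, 2 had equal numbers and 1 had fewer. At equal size, 11 families had more YAP-only members, 6 equal numbers and 13 more WT-only members. The families were chosen with earlier results of these data known, and a family is described by its counts only. A signal given with a gene is the highest of its regions inside the gene or within 5 kb.

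Of 73 MAP kinase cascade and dual-specificity phosphatase genes, 5 were YAP only at a gene end and none WT only. With the whole gene, 11 were YAP only and none WT only, and 7 and 0 at equal size. With the top 1000 of each list the whole-gene counts were 3 and 1, and no gene was YAP only or WT only at an end. Signals in the YAP list were 42.4 at Map4k4, 42.2 at Map3k1, 40.9 at Map2k6, 37.8 at Map3k4 and 34.4 at Mapk14, the gene of the p38α kinase. Dusp1, a phosphatase gene that switches MAP kinases off, had 35.5. Of 119 Fox, Klf, Sox and Hox factor genes, 7 had LSD1 at an end in YAP only and none in WT only, and 5 and 0 at equal size. Foxa3, a forkhead factor of hepatocytes, had 49.2, Klf6 37.4, Foxo3 36.9, Foxp1 36.6 and Klf10 36.3. Of these, Foxo3 also held WT regions elsewhere in the gene or its flanks. Over whole genes these factors were 11 YAP only and 1 WT only (Foxn2, 33.0), and 6 and 3 at equal size. With the top 1000 of each list they were 3 and 3.

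Among 37 bZIP factor genes, 8 were YAP only over the whole gene, 3 WT only and 1 both, and 5 and 4 at equal size. At gene ends the counts were 3 and 0, then 2 and 0 at equal size and 0 and 0 with the top 1000 of each. The 8 YAP-only members were Atf5 (50.5), a stress-responsive factor, Junb (44.5), Mafk (44.2), Cebpg (36.7), Fos (35.7), Maf (31.9), Fosb (29.5) and Jun (21.0). Of these, Maf, Fosb and Jun fell out of the reduced YAP list. Cebpa (21.7) and Cebpb (36.7), whose products drive hepatocyte gene expression, stood on the WT side, with Atf6 (19.3), a sensor of unfolded protein in the endoplasmic reticulum. The WT signals of Cebpa and Atf6 belong to the lowest of the 10 signal classes of the WT list, which ran up to 26.7.

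Genes of liver metabolism were mixed. Of 97 cytochrome P450 genes, 7 had LSD1 at an end in YAP only and 1 in WT only, but 2 and 1 at equal size. Over the whole gene the counts were 9 and 1, and at equal size they turned to 2 and 4. Cyp27a1, a sterol 27-hydroxylase gene (41.7), and Cyp4v3 (37.7) stayed, while Cyp7a1, the rate-limiting enzyme of bile acid synthesis (28.9), did not. Cyp7b1, another enzyme of oxysterols, was WT only at its end (35.7) and held a YAP region elsewhere in the gene or its flanks (30.2). Cyp8b1, the sterol 12-hydroxylase gene, was WT only over the whole gene (32.4). Serpins, inhibitors of proteases made in large amounts by liver, were 6 YAP only and none WT only of 63 over the whole gene at both sizes. At equal size these were 5 regions, since Serpina5 and Serpina3a shared 1 region of 37.5. At an end, 2 serpin genes were YAP only (3.17%, against 4.38% over all genes) and none WT only, then 1 and 0 at equal size. Serpinc1, the antithrombin gene, had 44.9, Serping1, the C1 inhibitor gene, 43.2, Serpina6 42.9 and Serpind1 42.6. Of 375 solute carrier genes, 20 were YAP only and 7 WT only at an end, and 7 and 8 at equal size. The 47 mitochondrial carriers among them counted 5 and 2 at an end and 3 and 2 at equal size, and over the whole gene 10 and 2, then 7 and 2. Of 25 nuclear receptor genes, 1 was YAP only at an end (Nr2c2, 42.3) and 2 WT only, Nr5a2 (32.7) and Nr0b2 (39.2), whose products both act in the control of bile acid synthesis. Over the whole gene the counts were 5 YAP only and 2 WT only, then 2 and 4 at equal size, and Nr5a2 also held a YAP region (30.5).

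Of 78 mitochondrial ribosomal protein genes, 5 were YAP only, 5 WT only and 7 both at an end in the full lists, and 3, 7 and 5 at equal size. With the top 1000 of each list they were 4, 7 and 2. Of 85 cytosolic ribosomal protein genes the counts were 4, 3 and 1, and then 1, 4 and 0, and 0, 1 and 0 with the top 1000 of each. Rpl23a, Rpl24 and Rpl37 were the WT-only members in the full lists. For 105 respiratory chain genes the YAP-only and WT-only counts were 5 and 4, then 1 and 4, the latter being Ndufs1, Uqcr10, Ndufaf4 and Ndufa13. Of 71 translation factor genes, 7 were YAP only and 4 WT only, then 4 and 5, and 3 and 3 with the top 1000 of each. Of 36 aminoacyl-tRNA synthetase genes, 3 were YAP only and 1 WT only, then 2 and 1. Zinc finger genes, the largest family after the olfactory receptors, were 22 and 11 of 465, then 11 and 14. Olfactory and vomeronasal receptors had 2 YAP-only and 1 WT-only member of 1463, and keratins none of 53.

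Shorter pathway lists held few members with LSD1. Of 22 insulin and mTOR signalling genes, 3 had LSD1 at an end in YAP only and none in WT only, at both sizes. They were Mtor (41.9), Rictor (36.9) and Foxo3 (36.9), and Foxo3 also held WT regions within the wider window. Over the whole gene 3 members were YAP only, none WT only and 4 both, then 2, 0 and 4 at equal size. With the top 1000 of each list, 1 was YAP only at an end and none WT only. Of 26 autophagy and lysosome genes, Uvrag (37.2) was YAP only and Ulk2 (31.9), Wipi2 (32.0) and Mcoln1 (37.9) were WT only. Of 20 genes of the integrated stress response, Sesn2 (36.0) was YAP only at its end, and Chac1 (35.5) and Ppp1r15b (30.1) were WT only. Sesn2 also held a WT region within the wider window (35.1), and over the whole gene no member was YAP only and 3 were WT only. Of 18 DNA damage and p53 genes, Brca1 (35.3) was YAP only at its end and Ercc1 and Atr were bound in both genotypes. Brca1 lost its region at equal size, which left 0 YAP only, 0 WT only and 2 both at an end. Of 20 ribosome biogenesis genes, Bysl (36.1) and Polr1a were YAP only at an end and Nop2 (32.6) was WT only. Polr1a lost its region at an end at equal size, which left 1 YAP only and 1 WT only.

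**Figure D3:**
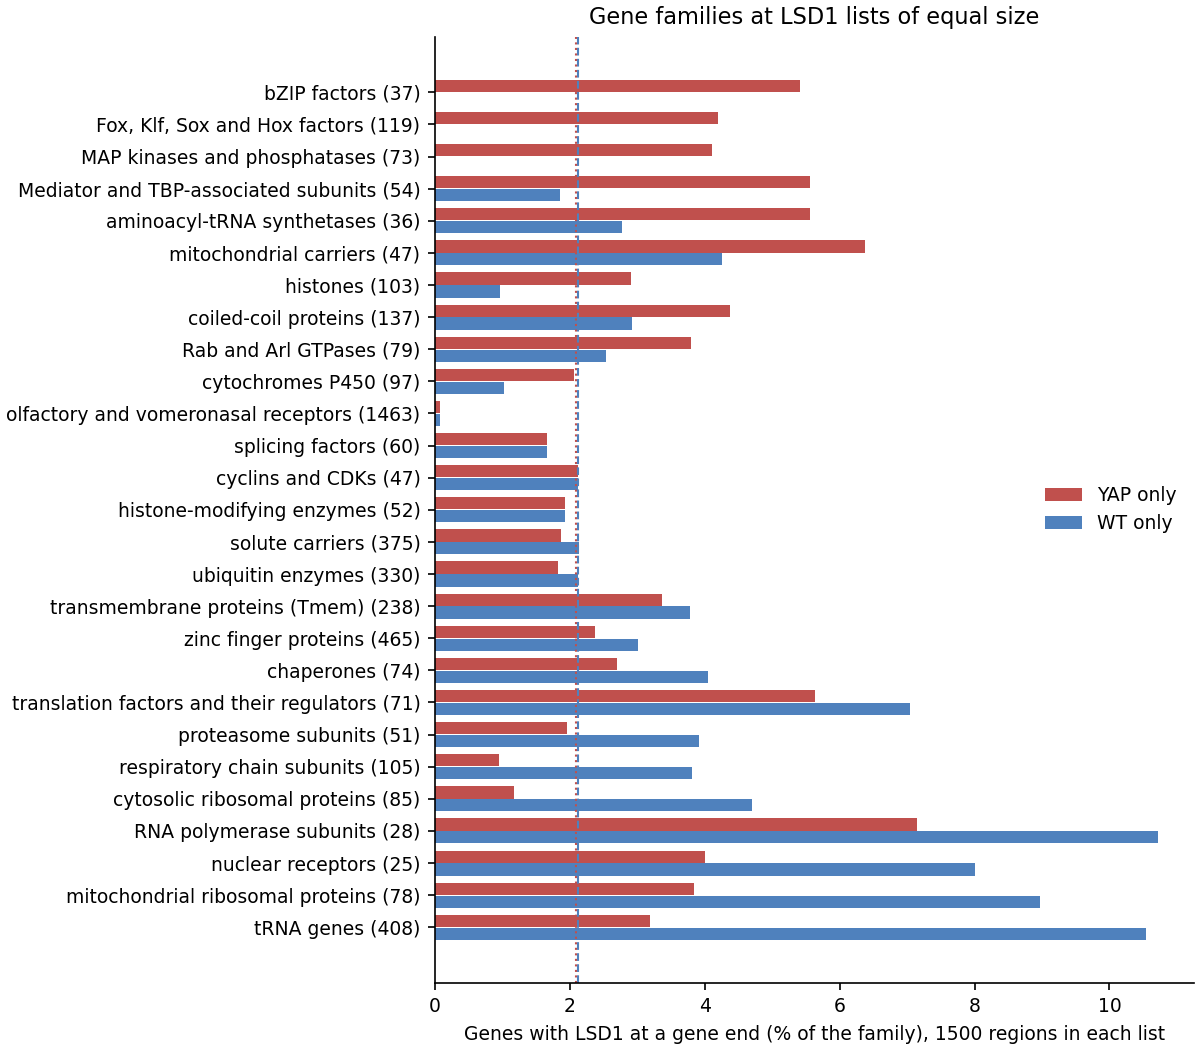
Share of the genes of a family with LSD1 at a gene end in YAP only or WT only (x axis, percent of the family) when both lists hold 1500 regions, for tRNA genes and the protein-coding families with at least 5 genotype-specific counts in all over both list sizes (y axis, number of genes in brackets). The dotted and dashed lines mark all protein-coding genes, 2.09% YAP only and 2.12% WT only. tRNA genes stand lowest, with 3.19% YAP only and 10.5% WT only.

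LSD1 was listed often at tRNA genes, short genes read by RNA polymerase III. Of 408 tRNA genes, 25.2% had an LSD1 region within 1 kb in at least 1 genotype, against 7.45% of protein-coding genes at an end, 3.16% of 12727 long non-coding RNA genes and 1.38% of 1228 miRNA genes. In the full lists 38 were YAP only, 34 WT only and 31 both. With the YAP list reduced by signal the counts were 13 YAP only and 43 WT only, with 22 both, and reduced by score they were 14 and 47. With the top 1000 of each list they were 12 and 32. tRNA genes lie in tight clusters and 1 region can reach several of them. Joined within 5 kb they made 211 loci, of which 21 were YAP only, 13 WT only and 18 both in the full lists, and 6, 18 and 13 at equal size. The direction at equal size therefore held for loci as well as genes, though over few loci.

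The highest signal of the whole WT list, 74.2, lay on n-TLaag7 and n-TLaag5, leucine tRNA genes at chr13:21169947-21170342. The YAP list had a region of 69.8 there. n-TIaat16 on chromosome 7 had 44.0 in WT and 72.6 in YAP, and n-TLtag3 on chromosome 11 had 46.9 and 43.8. These loci were bound in both genotypes. Other loci were bound in 1. On chromosome 19, 6 tRNA genes around n-TVtac1 were WT only and none YAP only, and on chromosome 1, 4 were WT only. On chromosome 17, 4 were YAP only, and so were 4 around n-TRacg3 on chromosome 3 (YAP signal 45.8). On chromosome 11, 15 of 52 tRNA genes were bound in both, 6 in YAP only and none in WT only. With the YAP list reduced to equal size this turned, to 10 in both, 1 in YAP only and 5 in WT only. All 4 YAP-only genes of chromosome 17 lost their region in the reduced list, while those around n-TRacg3 kept theirs. Chromosome 13, with 105 tRNA genes, had 12 YAP only, 15 WT only and 7 both. All 31 WT regions that lay on a tRNA gene had H3K4me2 in WT, and 31 of 33 such YAP regions had it in YAP, against 71.7% and 64.6% of the other regions. This was not particular to tRNA genes. At the ends of protein-coding genes, 5.46% of YAP-only, 5.16% of WT-only and 4.82% of common regions had H3K4me2 in neither list.

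Repeated binding marked a small set of genes. A YAP-only region lay inside or within 5 kb of 2007 protein-coding genes, of which 215 had at least 2 and 27 at least 3. WT-only regions lay at 835 genes, 47 with at least 2 and 5 with at least 3. Long genes have more room for regions, and the counts were not scaled by length. Shb, a signalling adaptor gene of 108.0 kb on chromosome 4, had 5 YAP-only regions with signals from 31.1 to 49.3 and no WT region. Nav2 had 5 over 651.0 kb, with signals from 33.0 to 46.3, and Nedd4l, a ubiquitin ligase gene, had 5 with a common one. Per2, a clock repressor gene of 43.4 kb, had 4 YAP-only regions of 37.0 to 43.7, the strongest at its boundary, at chr1:91459318-91459717. Rhobtb1 likewise had 4, of 38 to 52.9. All 4 regions of Per2 and all 4 of Rhobtb1 were kept in the reduced YAP list, whereas of the 4 at Slc39a14, a zinc and iron importer gene, 1 was kept. Id1, the gene of an inhibitor of helix-loop-helix factors and only 1.16 kb long, had 3 YAP-only regions, of 33.5 at the gene and of 50.7 and 47.8 beyond it. Etl4, Itgb5 and Cers6 also had 3.

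Hjurp, 18.8 kb long, had the most WT-only regions, 5 with signals from 15.3 to 55.9, beside 2 common ones. Ghr, the growth hormone receptor gene, Pitpnc1, a phosphatidylinositol transfer protein gene, and Prlr, the prolactin receptor gene, had 3 each. They also held YAP-only regions, 1 each at Ghr and Pitpnc1 and 2 at Prlr. At Pitpnc1 the YAP-only region, chr11:107270338-107270737 (26.2), lies beside the WT-only region chr11:107270829-107271224 (33.1). At Ghr the WT-only signals were 21.9, 28.9 and 45.6.

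In 173 genes both a YAP-only and a WT-only region were found and no common one. The nearest such pair was a median of 8.55 kb apart, and in 48 genes it was within 1 kb. Among those with the highest summed signal, the gap was 117 bp in Susd1, 248 bp in Zfp710, 253 bp in Itgb5, an integrin gene, and 273 bp in Dap. It was 363 bp in Bcl2l1, the gene of the survival protein BCL-XL, and 462 bp in Prlr. Wider gaps separated the pairs in Dapk1 (5387 bp), Cers6 (40734 bp) and Ghr (54099 bp). In Susd1 the YAP region at chr4:59318578-59318977 (50.7) and the WT region at chr4:59319095-59319490 (34.7) would be called 1 shared site at a tolerance of 1 kb. Over all genotype-specific regions such near misses were few, since 5.84% of WT-only regions lay within 1 kb of a YAP region and 2.54% of YAP-only regions within 1 kb of a WT region.

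Along chromosomes, the direction of the difference depended on list size. A neighbour of the same class within 100 kb was found for 41.5% of YAP-only (39.6 to 43.5), 28.1% of WT-only (25.4 to 31.0) and 16.2% of common regions (13.2 to 19.6) in the full lists. This YAP-only excess of 13.4 points (9.96 to 16.8) was between classes of 2442 and 993 regions. At equal size, 22.6% of YAP-only and 31.6% of WT-only regions had such a neighbour, a difference of -8.97 points (-12.6 to -5.32). The reduction keeps the strongest YAP regions but all WT regions, weak ones included. With the top 1000 of each list the shares were 17.7% and 21.6%, a difference of -3.98 points (-7.99 to 0.0326). Within 10 kb the shares were 12.4% YAP-only and 9.26% WT-only in the full lists, 5.8% and 10.4% at equal size, and 4.52% and 6.24% with the top 1000 of each. Within 1000 kb they were 89.6% and 71.7%, then 73.3% and 75.1%, then 62.7% and 66.7%.

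**Figure D4:**
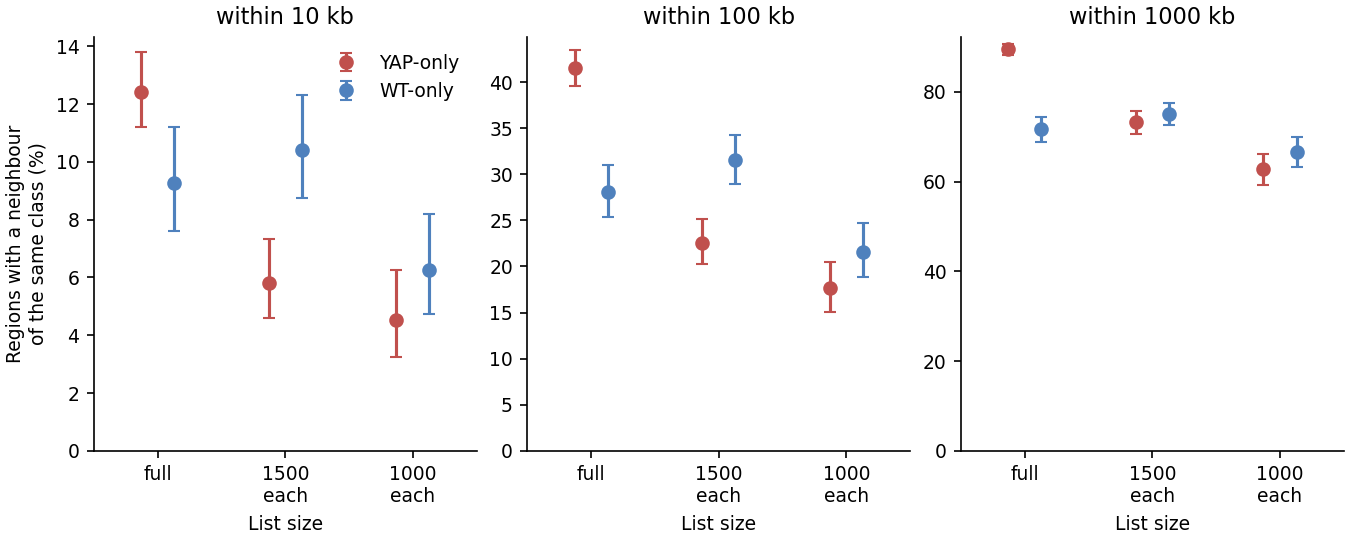
Share of YAP-only and WT-only LSD1 regions with a neighbour of the same class (y axis, percent, with 95% Wilson intervals) within 10, 100 and 1000 kb (panels), for the full lists and for lists of 1500 and 1000 regions each (x axis). YAP-only points lie above WT-only points in the full lists and below them in both reduced lists.

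In windows of 1 Mb, YAP-only regions reached 10 per window and WT-only regions 8. The window chr7:141-142 Mb held 10 YAP-only, 3 WT-only and 1 common region over 40 coding genes, among them Ifitm3, an interferon-induced antiviral gene, Rnh1, Taldo1, a gene of the pentose phosphate pathway, Pidd1 and Slc25a22. At chr10:111-112 Mb, 9 YAP-only regions lay among 6 coding genes and only Nap1l1, a histone chaperone gene, held any of them. At chr10:80-81 Mb were 8, at genes such as Gadd45b and Dot1l, the H3K79 methyltransferase gene. A further 2 gene-dense windows had 8 each, chr11:106-107 Mb with Map3k3, Ddx42 and Psmc5, and chr7:127-128 Mb with Mvp, Maz and Rnf40. At equal size these 5 windows held 4, 5, 3, 2 and 4 YAP-only regions and 3, 5, 1, 2 and 2 WT-only regions, so that those on chr10:111-112 Mb and chr11:106-107 Mb had equal numbers. The fullest WT-only windows were chr1:88-89 Mb with 8, at Hjurp, Mroh2a and Spp2, chr13:23-24 Mb with 8, a stretch of histone and tRNA genes where Abt1, H4c8, H3c6 and Slc17a3 held them, and chr15:10-11 Mb with 7, at Prlr, Agxt2 and Rai14.

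Regions followed genes and H3K4me2 in every class. Over 2732 windows the Spearman correlation with the number of coding genes was 0.51 for YAP-only, 0.38 for WT-only and 0.33 for common regions, and with the number of H3K4me2 regions 0.7, 0.51 and 0.42. Windows share sequence composition and mappability, so these values only describe. The YAP-only share of genotype-specific regions was 71.1% (69.6 to 72.6) in all, from 65.5% (59.6 to 71.0) on chromosome 1 to 77.9% (72.0 to 82.8) on chromosome 7 among the autosomes. At equal size it was 43.6% (36.5 to 50.9) on chromosome 1 and 61.9% (54.1 to 69.2) on chromosome 7. Windows without a coding gene held 37 YAP-only and 5 WT-only regions, and at equal size 13 of 18 specific regions there were YAP-only (72.2%, 49.1 to 87.5). On the X chromosome regions were scarce, with 8.2 per 100 Mb in YAP and 2.93 in WT, against at least 88.2 and 41.9 on every autosome. No region was listed on Y.

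H3K4me2, a substrate of LSD1, leaned the same way as LSD1 where it was listed in 1 genotype. Among YAP-only LSD1 regions, 8.07% lay on H3K4me2 of the YAP list alone and 5.32% on H3K4me2 of the WT list alone. Among WT-only LSD1 regions these shares were 3.12% and 9.16%. The difference between the classes was 4.95 points (3.32 to 6.41) for YAP-only H3K4me2 and -3.84 points (-5.96 to -1.94) for WT-only H3K4me2. At equal size it was 4.22 points (2.4 to 6.1) and -4.22 points (-6.39 to -2.09). Over all H3K4me2 regions, 14292 were found in WT only and 11154 in YAP only. Most of the lean lay away from gene ends, where 11.2% of YAP-only and 4.5% of WT-only LSD1 regions were on YAP-only H3K4me2. At gene ends these shares were 2.14% and 0.573% (18 and 2 regions), and most regions there had the mark in both. WT-only H3K4me2 lay at 7.0% of YAP-only and 12.7% of WT-only LSD1 regions away from gene ends. At gene ends it lay at 2.14% and 2.58%.

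Over both genotypes, 56.0% of YAP-only, 62.4% of WT-only and 65.3% of common LSD1 regions had H3K4me2 in both lists. No listed H3K4me2 lay at 30.6% of YAP-only and 25.3% of WT-only regions, a difference of 5.35 points (2.03 to 8.55). The shares were 31.9% and 24.2% at equal size, a difference of 7.74 points (4.05 to 11.4), and 34.4% and 23% with the top 1000 of each, a difference of 11.4 points (6.86 to 15.9). H3K4me1 was listed at 1.33% or fewer of the regions of any class in either genotype, over the full, equal-size and top 1000 lists. Why LSD1 and H3K4me2 were listed in the same genotype at some regions was not tested.

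**Figure D5:**
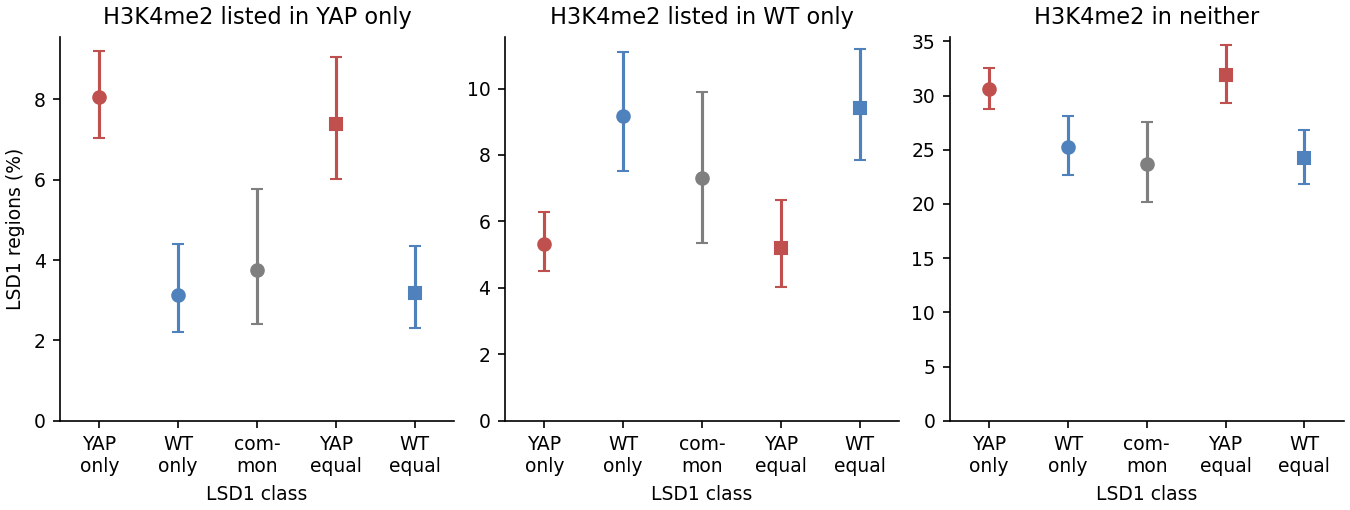
Share of LSD1 regions (y axis, percent, with 95% Wilson intervals) on H3K4me2 listed in YAP only, in WT only or in neither genotype (panels), for YAP-only, WT-only and common regions of the full lists (circles) and for lists of equal size (squares, x axis). YAP-only LSD1 lies at 8.07% and WT-only LSD1 at 3.12% in the first panel, and the order turns in the middle panel, at 5.32% and 9.16%.

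Promoter sequence differed little between the classes. LSD1 overlapped 706 promoters in YAP only, 278 in WT only and 210 shared by the genotypes, which had mean GC contents of 61.1%, 61.2% and 60.7%, against 56.2% over all 21238 promoters and 61.1% over the 11358 with H3K4me2. The CpG medians were 22, 23 and 22, against 13 over all and 21 with H3K4me2. The TEAD core GGAATG was in 10.9% of YAP-only promoters (8.82 to 13.4), 12.6% of WT-only (9.19 to 17.0), 13.8% of common ones (9.79 to 19.1) and 13.6% of all promoters, a difference between the specific classes of -1.68 points (-6.57 to 2.54). The ETS core CCGGAAG was in 24.5%, 20.9% and 27.6% of the 3 classes, against 11.6% of all promoters and 18.3% of those with H3K4me2. The YY1 motif AAGATGGC was in 7.22%, 5.76% and 10.0%, against 3.05% and 4.3%. The SP and KLF core GGGCGG was in 64.9%, 62.9% and 68.1%, against 46.2% and 65.0%. The AP-1 motif TGAGTCA, bound by Fos and Jun proteins, was in 2.41%, 3.24% and 1.43%, against 4.66% and 3.28%.

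Of 15 motifs searched on both strands, none had a YAP-only minus WT-only difference whose interval excluded 0 in the full lists, and 1 did at equal size. It was the NFY motif CCAAT, in 48.2% of YAP-only and 38.9% of WT-only promoters (9.36 points, 1.84 to 16.7), against 44.6% and 37.8% in the full lists (6.85 points, -0.0181 to 13.5) and 38.2% of all promoters. The intervals were not adjusted for the number of motifs. The whole CRE motif TGACGTCA was in 4.96% of YAP-only and 5.4% of WT-only promoters, against 2.24% of all, and TGACG, which the whole motif contains, in 36.3% and 40.3%, against 23.6%. A match only says that these letters are present in the window.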

How the data were processed

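The series measured LSD1, H3K4me1 and H3K4me2 by chromatin immunoprecipitation sequencing, and 6 lists of enriched regions were deposited, a list per antibody and genotype. Per the labels, each list belongs to both replicates, which the authors therefore combined in a manner not given. The submitters' processing notes name mm10 as the build and, as tools, deepTools 3.3.0, bedtools 2.26.0, Picard 1.126, SAMtools 1.7, BWA and Trimmomatic 0.39. Which program called the regions, at what threshold, and whether inputs were used is not given in the sources used here. The deposited LSD1 entries all have 1 width, 396 bp in WT and 400 bp in YAP. The signal (column 7) and the score (column 5, from 540 to 1000) were deposited by the authors with no stated definition. Both were used to rank or describe regions within a list. Signals of both lists entered 1 correlation over common pairs, and were summed to order the genes with both kinds of specific region. Common regions are described by their position in the YAP list. Nuclease digestion cuts linker DNA, so a region can also follow where nucleosomes lie.

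Entries of a list that overlapped or touched were merged, which made 1500 regions of 1718 WT entries and 2949 of 3353 YAP entries, and a merged region took its highest signal and score. Lists were reduced by signal to equal length. Gene boundaries and promoters came from RefSeq tables of GRCm38.p6, with 21887 protein-coding genes and 408 tRNA genes. The boundary table has no strand, so a gene end is either boundary. H3K4me2 at an LSD1 region means an overlap of at least 1 bp. All results are descriptions, since 1 list per genotype allows no test. Families are sets of gene symbols, and those of Rab and Arl GTPases and of nuclear receptors were narrowed after a first look at their members. The members and lists were chosen with earlier results of these data known.

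Named were the 8 regions of each specific class with the highest signal away from gene ends, the 5 YAP-only and 3 WT-only regions farthest from a gene, up to 10 genes with most YAP-only and 5 with most WT-only regions, up to 10 with both kinds, genes of the fullest windows, up to 6 YAP-only and 4 WT-only members per list, and Kdm1a, Yap1 and Odc1. One gene that this rule names is not reported here. All 8 YAP-only bZIP genes are named, beyond that number. The tRNA genes singled out were chosen after their values were seen. Promoter motifs were searched on both strands of 300 bases. The scripts ran under Python 3.11.15 with pandas 2.3.3, numpy 2.4.6 and matplotlib 3.10.9, and the overlap code was tested on simulated data against bedtools 2.31.1. Alternatives were other list lengths, other overlap rules, other gene windows and other neighbour distances, and the closing section gives their effect.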

Additional observations from a re-analysis of the deposited data

How the results depend on the processing

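No paired analysis was possible because each list pools both replicates of its genotype, and for the same reason no replicate could be left out. The count of YAP-only regions, 2442, was 1137 with the YAP list limited by signal, 1127 limited by score, 753 with the top 1000 of each list, 391 with the top 500 and 656 at the highest score alone. The WT-only count of 993 was 391 with the top 500 and 160 at the highest score, and the common count of 507 was 247, 109 and 99 with the top 1000, the top 500 and the highest score. The difference in numbers, 1449, was 0 under all 4 reductions to equal length, as they are built. It was 496 at the highest score, where the lists hold 259 WT and 755 YAP regions. Calling regions within 1 kb shared, asking for 50% of both regions, or joining regions within 1 kb moved none of these 4 values by over 1.5 times.

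Genes with LSD1 at an end in YAP only numbered 457 at equal size and 1769 with the whole gene and 5 kb, and those in WT only 625 with the latter. The excess of 581 genes was -8 at equal size, where specific regions are equal in number by construction, and 1144 with the whole gene. Shares at gene ends rose to 49.8% (YAP-only) and 50.3% (WT-only) within 5 kb of a boundary, and their difference stayed inside its interval. The share with a neighbour within 100 kb was 22.6% (YAP-only) and 31.6% (WT-only) at equal size, 17.7% and 21.6% with the top 1000 of each, 12.4% and 9.26% within 10 kb, and 89.6% and 71.7% within 1 Mb. Its difference of 13.4 points was -8.97, -3.98, 3.18 and 17.9 in that order. The difference for tRNA genes, 4, was -30 when limited by signal, -33 by score and -20 with the top 1000 of each, with 13, 14 and 12 YAP-only genes in place of 38. The top 1000 in the neighbour count and all alternatives for tRNA genes were chosen after seeing the data. Of 60 family counts, 25 moved by over 1.5 times at equal size and 26 with the whole gene. The unknown depth and the unknown threshold of each list limit every count above, and list length cannot be told apart from genotype.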
